A study of Homo sapiens with 30 samples.

Results

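The comparison described here set 3 libraries of UMUC1 cells carrying wild type UTX against 3 libraries of the same cells carrying UTX with the H1146A and E1148A substitutions (HEAA), all grown in sphere medium; these are 6 of the 30 RNA sequencing libraries of the series. The members of the comparison were chosen by the sample labels alone, and all 19629 genes that passed a count filter were tested. UMUC1 is a human bladder cancer cell line, used here as a line with loss of UTX function. Both forms of UTX were expressed stably from the pSIN-puro lentiviral vector, and another line carried the empty vector (EV, 3 libraries). Sphere medium was serum-free minimum essential medium to which a B27 supplement free of vitamin A and the growth factors EGF (20 ng/ml) and FGF2 (20 ng/ml) had been added, and cells were collected on day 3. The same 3 lines in full medium (minimum essential medium with 10% fetal bovine serum, 3 libraries each) were used for comparison. A second set of UMUC1 lines, carrying FGFR3 (wild type or S249C) together with an empty vector or wild type UTX from pCDH-blasticidin in full medium, 3 libraries each, was used for 1 result on chromosome 16. The labels do not say whether each stable line is 1 clone or a pool, or whether the libraries of a group came from separate cultures, so the p-values measure only the spread between these libraries. With 1 line per construct, the UTX form and the line that carries it cannot be told apart.

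UTX, the product of KDM6A, is a JmjC-domain histone demethylase that removes methyl groups from lysine 27 of histone H3, a mark placed by the Polycomb repressive complex PRC2. It also works as a subunit of the KMT2C and KMT2D complexes, which methylate lysine 4 of histone H3 at enhancers. The catalytic centre of a JmjC demethylase binds iron through a His-X-Glu motif and a further histidine, and H1146A with E1148A replaces both residues of that motif. A comparison of the wild type with HEAA therefore asks which transcript levels differ with the catalytic residues while both proteins are expressed. In epithelia of the urothelial and squamous kind, keratins, desmosomes and uroplakins mark the layers of the tissue, with KRT5 and KRT14 in basal cells, KRT1, KRT10 and the small proline-rich proteins in cornifying cells, and uroplakins in luminal cells.

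The sequence around the 2 changed residues is shown because it is the only designed difference between the groups. It is the reference coding sequence of KDM6A codons 1134 to 1160 (GENCODE release 29, transcript of the 1401-residue product, coding strand), with the codons of H1146 and E1148 in capitals:
KDM6A: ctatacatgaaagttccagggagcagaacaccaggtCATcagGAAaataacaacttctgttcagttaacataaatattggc

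KDM6A itself was measured in every library. In sphere medium its level was 7.71, 9.08 and 7.74 CPM (counts scaled to a common library size, with trimmed-mean-of-M-values factors between libraries) in EV, 926, 957 and 946 CPM in HEAA, and 855, 878 and 849 CPM in UTX. Both constructs raised KDM6A far above EV, and the UTX libraries lay slightly below the HEAA libraries without overlap. The log2 fold change of UTX over HEAA was -0.13 (SE 0.04, edgeR quasi-likelihood test with Benjamini-Hochberg adjustment over all genes, adjusted p = 0.0139), and it was -0.26 in full medium. All further adjusted p-values for this series come from the same fit. Markers of an epithelial line were present in both groups, with EPCAM at 171 to 180 CPM, CDH1 at 626 to 794 CPM and KRT19 at 1970 to 2764 CPM over the 6 libraries. Of 7 fibroblast genes tested, only COL1A1 differed, COL3A1 and POSTN were listed at 0 in all sphere medium libraries, and the summed level of the list was 21.2 to 23.4 CPM in UTX and 14.9 to 16.9 CPM in HEAA. The summed level of 4 leukocyte and endothelial genes was 18.9 to 19.7 CPM in UTX and 18 to 19.5 CPM in HEAA.

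The total per library was 23749352 to 25743116 counts in UTX and 24250265 to 40111234 in HEAA. Cytosolic ribosomal protein genes took 5.38% to 5.45% of counts in UTX and 5.57% to 5.66% in HEAA. The median log2 fold change of all genes was 0.00. On the first principal component of the sphere medium libraries (45.7% of the variance) EV lay at -58.1 to -53.0, HEAA at 19.0 to 20.7 and UTX at 33.0 to 37.8. On the second (11%) UTX lay at -25.3 to -16.4 and HEAA at 15.1 to 37.2.

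Of the 19629 genes, 3931 were called at an adjusted p under 0.05 (20% of those tested), 1742 higher with UTX (8.87%) and 2189 lower (11.2%). The differences were mostly small: the median absolute log2 fold change of the called genes was 0.24, and 87.4% of them were under 1.5-fold. Genes called and at least 2-fold apart numbered 87 higher (0.443%) and 102 lower (0.52%), and among genes with a mean of at least 2 CPM these fell to 11 and 28. The libraries of the 2 groups did not overlap for 6857 genes (34.9%). The count of higher genes was 998 without UTX replicate 2 and 1347 at most with any 1 library of the comparison left out.

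**Figure D1:**
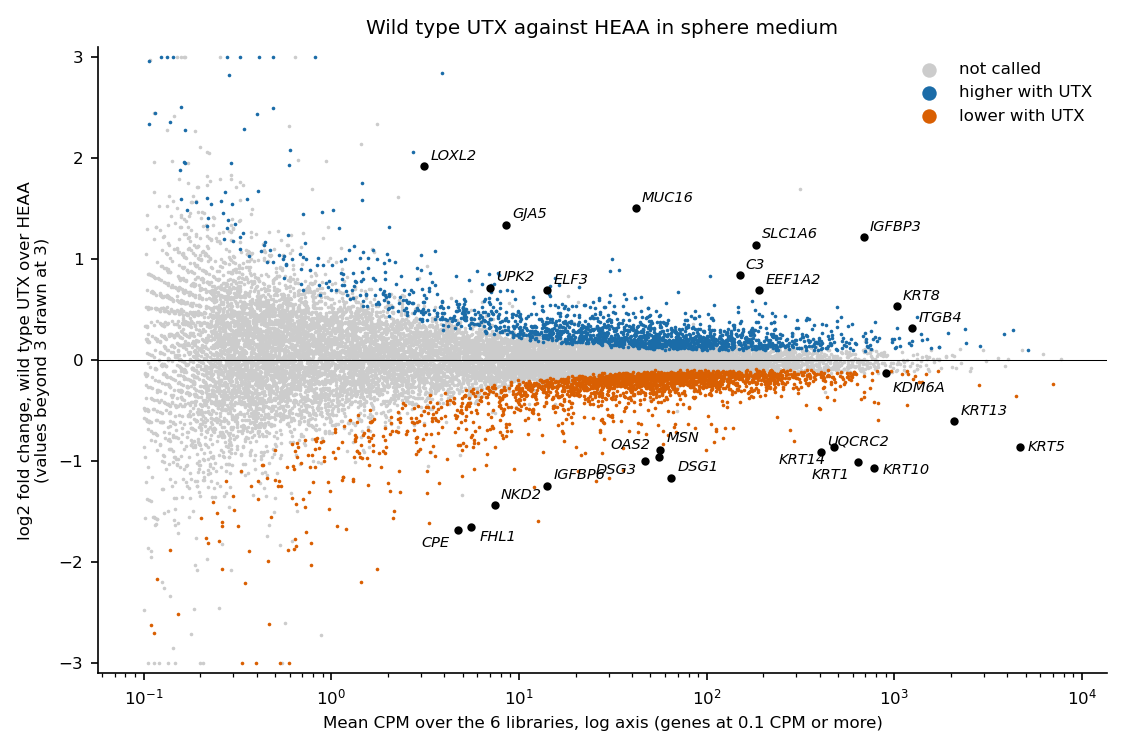
Each point is 1 gene; the x axis gives its mean CPM over the 3 UTX and 3 HEAA sphere medium libraries on a log scale, and the y axis its log2 fold change of UTX over HEAA. Called genes are coloured by direction, and the labelled genes are described in the text; abundant keratins (KRT5, KRT10, KRT1, KRT14, KRT13) lie below 0, while MUC16, IGFBP3 and SLC1A6 lie above 1.

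Among genes with a mean of at least 50 CPM, the 3 largest falls were DSG1, KRT10 and KRT1, genes of stratified squamous epithelium, followed by OAS2 and UQCRC2. KRT10, a keratin of suprabasal, cornifying cells, stood at 1124, 964 and 1082 CPM in HEAA and at 485, 510 and 521 CPM in UTX, a 2.09-fold fall (log2 -1.06, SE 0.06, adjusted p = 2.24e-10). Its partner KRT1 stood at 906, 769 and 881 CPM in HEAA and at 406, 423 and 441 CPM in UTX (log2 -1.01, SE 0.08, adjusted p = 1.05e-08). The 2 groups did not overlap for either gene, which was a condition of the ranking at 50 CPM. Both groups lay far below EV, where KRT10 was 4257 to 5237 CPM and KRT1 3991 to 4716 CPM. In bulk RNA, fewer cells of a type and less RNA per cell cannot be told apart.

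The basal keratins KRT5 and KRT14 moved the same way, whereas KRT15, another basal keratin, rose. KRT5, the type II keratin of basal cells, was 6221, 5887 and 5886 CPM in HEAA and 3428, 3085 and 3418 CPM in UTX, 1.81-fold lower (log2 -0.86, SE 0.05, adjusted p = 1.14e-10), with EV at 11894 to 12848 CPM. KRT14, which pairs with KRT5, was 643, 584 and 613 CPM in HEAA and 339, 329 and 347 CPM in UTX (log2 -0.86, SE 0.04, adjusted p = 2.37e-11). KRT13 fell from 2657, 2409 and 2473 CPM to 1667, 1601 and 1683 CPM (log2 -0.61, adjusted p = 1.1e-10), and KRT16, KRT17 and KRT6A, keratins of activated keratinocytes, fell by 0.45, 0.35 and 0.24 on the log2 scale. KRT6A, KRT6B and KRT6C are near-identical copies among which reads can be split, so the KRT6A value is uncertain. TP63, the transcription factor of basal identity, was 280, 284 and 280 CPM in HEAA and 237, 228 and 225 CPM in UTX (log2 -0.29, adjusted p = 2.47e-05).

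KRT8, KRT18 and KRT19, keratins of simple and luminal epithelium, moved the other way. KRT8, which pairs with KRT18 in simple epithelia, was 887, 795 and 832 CPM in HEAA and 1210, 1249 and 1191 CPM in UTX (log2 0.54, SE 0.04, adjusted p = 2.7e-09), with EV at 806 to 868 CPM. KRT18 rose by 0.19 and KRT19 by 0.31 on the log2 scale, and KRT15, a basal keratin, rose by 0.37. Not all such keratins rose: KRT7 (log2 -0.18, adjusted p = 0.658) and KRT20 (log2 -0.95, adjusted p = 0.107), both near or below 1 CPM in sphere medium, were not called. Over the families, 8 of 20 type II keratins fell and 2 rose, and 6 of 16 type I keratins fell and 3 rose. Over all genes, 11.2% were called lower and 8.87% higher. These shares stand beside each sphere medium count of list or family members below.

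Desmosomal cadherins, the adhesion molecules that anchor keratin filaments at cell contacts, fell in 5 of 6 members, with a median log2 fold change of -0.54. DSG1, of the outer layers, was 90.9, 87.7 and 89.1 CPM in HEAA and 36.9, 41.2 and 41.7 CPM in UTX (log2 -1.16, SE 0.06, adjusted p = 9.37e-11). DSG3, of the basal layers, was 62.1, 60.8 and 65.6 CPM in HEAA and 31.4, 30.1 and 32.7 CPM in UTX (log2 -1.0, SE 0.06, adjusted p = 1.02e-10). DSC3 fell by 0.48 and DSC2 by 0.19. DSG2, the desmoglein of simple epithelia, was the member that rose, from 562, 602 and 572 CPM to 642, 690 and 624 CPM (log2 0.17, adjusted p = 0.00847; 0.116 at most with 1 library left out). PKP1, a desmosomal plaque protein, fell from 354, 332 and 343 CPM to 212, 214 and 210 CPM (log2 -0.69, adjusted p = 1.9e-09), while the plaque proteins DSP (log2 -0.08, adjusted p = 0.0842) and JUP (log2 0.01, adjusted p = 0.873) did not pass the test.

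**Figure D2:**
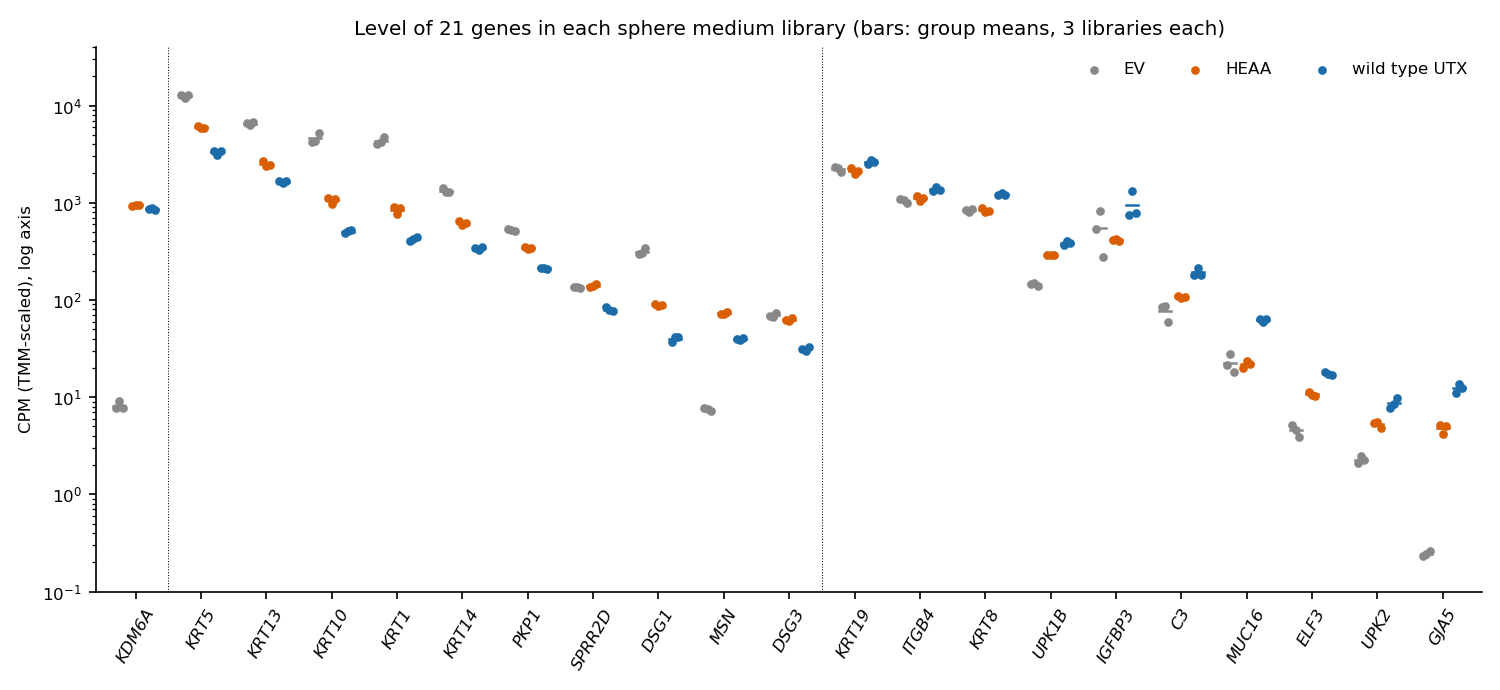
Points are the CPM of 21 genes in each of the 9 sphere medium libraries on a log axis, grey for EV, orange for HEAA and blue for wild type UTX, with short bars for group means. KDM6A is high in both UTX groups and near 8 CPM in EV; the 10 genes in the middle lie lower in every UTX library than in every HEAA library and the 10 on the right lie higher.

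Among 33 squamous and cornified envelope genes tested, 18 fell, none rose and 15 did not pass the test, with a median log2 fold change of -0.28 against 0.00 over all genes. The 3 largest falls of the list were DSG1, KRT10 and KRT1. Unlike DSG1, KRT10 and KRT1, most of the list lay above EV in both groups. With UTX over EV 19 were called higher and 9 lower (median 0.59), and with HEAA over EV 22 and 6 (median 0.97). Of all genes, 48.4% and 41.4% were called in these 2 contrasts, 4477 higher and 5027 lower with UTX and 3906 and 4212 with HEAA. The small proline-rich proteins, which are cross-linked into the cornified envelope, fell in 7 of 11 members: SPRR2D was 136, 139 and 144 CPM in HEAA and 83.7, 78.4 and 76.9 CPM in UTX (log2 -0.81, adjusted p = 3.43e-11), and SPRR2A fell by 0.71. The SPRR2 genes are close copies, so the split between them is uncertain. S100A8 (log2 -0.42) and S100A9 (log2 -0.24), calcium-binding proteins of activated keratinocytes, and SERPINB13 (log2 -0.55), a clade B serpin, also fell. IVL, a precursor of the envelope, had a log2 fold change of 0.08 (adjusted p = 0.368), and SPRR3 one of -0.12 (adjusted p = 0.159). SPINK5, a serine protease inhibitor of the cornifying epidermis, was outside the list and fell from 42.3, 43.9 and 38.6 CPM to 18.7, 16.6 and 20.1 CPM (log2 -1.17, adjusted p = 1.19e-09).

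The 250 bases before the annotated start (RefSeq, GRCh38.p14) are shown for 4 basal and squamous genes that fell together, chosen after their values were seen. The motif AGATAA, read on either strand (a GATA-type motif), is in capitals where it occurs: KRT5 (chr12:52520395-52520644, minus strand), KRT10 (chr17:40822615-40822864, minus strand), DSG1 (chr18:31317910-31318159, plus strand) and DSG3 (chr18:31447491-31447740, plus strand).
KRT5: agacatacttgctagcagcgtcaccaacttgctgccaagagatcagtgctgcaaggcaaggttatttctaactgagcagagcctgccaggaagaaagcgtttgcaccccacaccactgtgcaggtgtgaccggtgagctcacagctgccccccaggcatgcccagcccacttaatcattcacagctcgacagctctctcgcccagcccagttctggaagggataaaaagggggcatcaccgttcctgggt
KRT10: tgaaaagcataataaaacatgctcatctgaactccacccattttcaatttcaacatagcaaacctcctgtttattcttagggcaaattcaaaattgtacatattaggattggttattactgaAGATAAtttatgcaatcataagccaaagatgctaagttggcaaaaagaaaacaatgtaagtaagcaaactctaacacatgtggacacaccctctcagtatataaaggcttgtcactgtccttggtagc
DSG1: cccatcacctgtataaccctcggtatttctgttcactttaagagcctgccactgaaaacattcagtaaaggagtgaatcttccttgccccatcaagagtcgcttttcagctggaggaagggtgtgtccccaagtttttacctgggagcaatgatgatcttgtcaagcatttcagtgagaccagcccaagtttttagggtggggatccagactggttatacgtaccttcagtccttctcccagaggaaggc
DSG3: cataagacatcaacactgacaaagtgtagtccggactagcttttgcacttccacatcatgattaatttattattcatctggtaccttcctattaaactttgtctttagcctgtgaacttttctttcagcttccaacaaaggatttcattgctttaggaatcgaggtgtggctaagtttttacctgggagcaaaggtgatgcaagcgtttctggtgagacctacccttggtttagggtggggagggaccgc
These 4 windows held 6, 0, 3 and 4 CpG dinucleotides in that order, and the KRT10 window held the 1 motif match. Promoter windows were matched for 12144 tested genes, whose median was 19.4 CpG per window. The 55 matched genes that were at least 2-fold lower had a median of 8.0 CpG, and the 38 that were at least 2-fold higher had 9.17. AGATAA was found in 16.4% of the lower and 0.0% of the higher genes, against 7.5% of all matched genes. A count of 0 among 38 allows up to 7.89%. A gene with several windows counted as holding a motif if any of them did, and its CpG number was their mean. With genes taken at 1.5-fold and 2 CPM instead, AGATAA was in 17.2% of 99 lower and 12.5% of 48 higher genes, and the median CpG number was 11.5 and 17.0. At 2-fold, the other motifs searched on both strands were TGANTCA (AP-1; 7.3% of lower, 7.9% of higher, 6.8% of all), GGAATG (TEAD; 20.0%, 18.4% and 13.4%), CACGTG (E-box; 5.5%, 7.9% and 10.7%) and AACCNGTT (grainyhead-like; 3.6%, 2.6% and 1.8%). None of these motifs contains another, the shares were not tested, and a match is a description of the letters only.

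Luminal urothelial genes were higher as a list: 14 of 28 tested rose and 5 fell, with a median log2 fold change of 0.17. UPK2, a uroplakin of the luminal membrane plaque, was 5.45, 5.52 and 4.87 CPM in HEAA and 7.76, 8.45 and 9.89 CPM in UTX (log2 0.72, SE 0.10, adjusted p = 1.9e-05). UPK1B rose from 289, 293 and 293 CPM to 369, 402 and 381 CPM (log2 0.40, SE 0.04, adjusted p = 1.23e-07), and UPK3B rose by 0.43. ELF3, an epithelial ETS factor, was 11.4, 10.5 and 10.4 CPM in HEAA and 18.3, 17.1 and 16.9 CPM in UTX (log2 0.69, SE 0.07, adjusted p = 5.24e-07). GATA3, a luminal transcription factor, rose by 0.29 and FOXA1, a pioneer factor, by 0.36 (adjusted p = 0.0079), while PPARG was level (log2 0.00, adjusted p = 0.993). The 5 that fell included KRT13 and KRT4, keratins of intermediate and non-cornified layers, and the transcription factors GRHL3 (log2 -0.36) and KLF5 (log2 -0.28). The remaining gene that fell, not named here, was called at least 2-fold lower, the only call of that size in the list. The lowest log2 fold change of the list was -1.21 and the highest 0.72. FOXA1 lost its call without UTX replicate 2, with a log2 fold change of 0.22.

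The basal list was split, with 6 genes higher and 11 lower of 26. The genes that rose included those of the attachment to the basement membrane, with KRT15 and CDH3 beside them. LAMB3, a laminin chain of the epithelial basement membrane, rose from 345, 314 and 330 CPM in HEAA to 385, 485 and 386 CPM in UTX (log2 0.35, adjusted p = 0.00423), and the laminin chain LAMA3 rose by 0.22 (adjusted p = 0.0218). ITGB4, the integrin chain of hemidesmosomes, rose from 1167, 1044 and 1118 CPM to 1335, 1463 and 1346 CPM (log2 0.32, adjusted p = 0.000106). COL17A1, the hemidesmosomal collagen, rose by 0.32 and COL7A1, of the anchoring fibrils, by 0.39, whereas ITGA6 was level (log2 0.04, adjusted p = 0.444). In the list of integrins and laminins, 11 of 21 rose and 1 fell, with a median of 0.21. ITGA5 rose by 0.48, LAMA4 by 0.42 and ITGB6 by 0.40, and ITGA1, a collagen receptor chain, fell from 8.12, 8.92 and 8.48 CPM to 5.21, 6.49 and 5.55 CPM (log2 -0.56, adjusted p = 0.00107). UTX replicate 2 was the highest UTX library for LAMA3, LAMB3, ITGB4 and ITGB6, and without it 7 integrin and laminin genes were called higher. Over the alternative runs described below, the 1.5-fold test aside, some calls were lost. The adjusted p reached 0.318 for LAMA3, 0.183 for CDH3, 0.0733 for ITGA5 and 0.0616 for LAMB3.

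Tight and adherens junction genes shifted by small amounts, 9 of 25 higher and 1 lower, with 3 higher when UTX replicate 2 was left out. CDH1, E-cadherin, rose from 643, 638 and 626 CPM to 750, 794 and 749 CPM (log2 0.27, SE 0.04, adjusted p = 4.3e-05). TJP3, a tight junction scaffold, rose by 0.57 and CLDN4 by 0.20. CLDN1 was the gene that fell, from 471, 484 and 457 CPM to 338, 328 and 346 CPM (log2 -0.48, SE 0.03, adjusted p = 3.43e-09), with EV at 461 to 478 CPM.

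**Figure D3:**
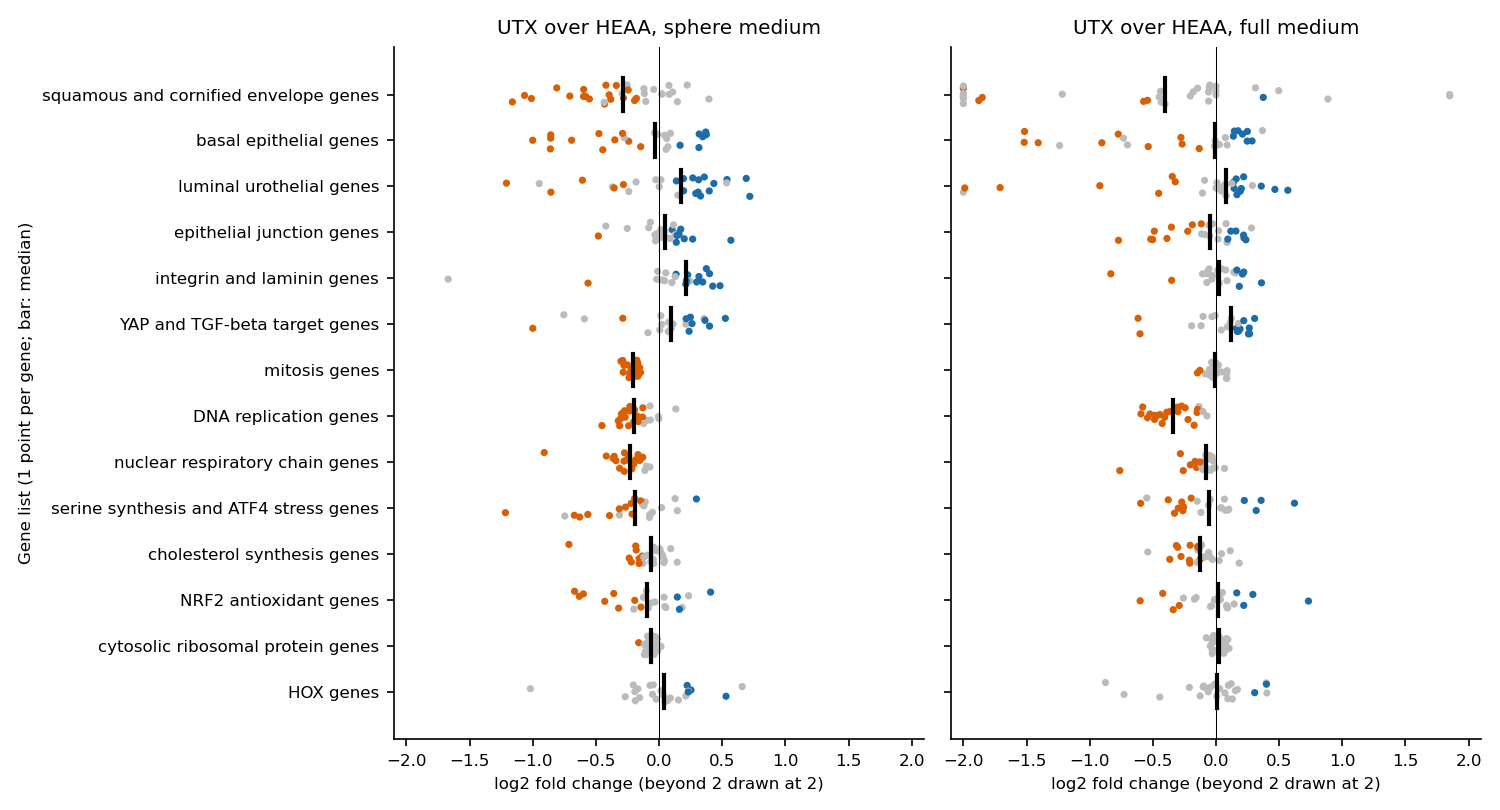
Each point is a gene of the list named on the left; the x axis gives its log2 fold change of UTX over HEAA in sphere medium (left panel) and in full medium (right panel), blue for called higher, orange for called lower and grey for not called, with a black bar at the list's median. All 22 mitosis genes lie below 0 on the left and around 0 on the right; 18 squamous genes are orange on the left.

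Single genes of the cell surface and of secretion were among the largest rises. MUC16, a membrane mucin known as the CA125 antigen, was 20.1, 23.7 and 22 CPM in HEAA and 63.3, 58.7 and 63.4 CPM in UTX, 2.84-fold higher (log2 1.5, SE 0.12, adjusted p = 1.48e-08), with EV at 18.2 to 28 CPM. GJA5, a gap junction connexin, was 5.17, 4.20 and 5 CPM in HEAA and 11.1, 13.5 and 12.3 CPM in UTX (log2 1.34, SE 0.08, adjusted p = 3.21e-10), and at most 0.26 CPM in EV. SLC1A6, a glutamate transporter, was 106, 112 and 124 CPM in HEAA and 241, 282 and 233 CPM in UTX (log2 1.14, SE 0.12, adjusted p = 1.12e-06). C3, the central complement component, was 109, 104 and 108 CPM in HEAA and 181, 213 and 182 CPM in UTX (log2 0.84, SE 0.09, adjusted p = 1.44e-06). EEF1A2, a translation elongation factor, rose by 0.69, ARID3A, a DNA-binding factor, by 0.67, IFITM10 by 1.00 and TNXB, an extracellular tenascin, by 1.08.

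For several rises the UTX libraries were uneven. LOXL2, a secreted lysyl oxidase, was 1.19, 1.27 and 1.43 CPM in HEAA and 2.74, 8.92 and 3.14 CPM in UTX (log2 1.92, SE 0.58, adjusted p = 0.0216). IGFBP3, a binding protein of insulin-like growth factors, was 412, 421 and 405 CPM in HEAA and 754, 1332 and 787 CPM in UTX (log2 1.21, SE 0.23, adjusted p = 0.00085), with EV spread over 279 to 832 CPM. ANGPTL4, a secreted lipase inhibitor, was 2.39, 1.57 and 1.88 CPM in HEAA and 2.86, 5.93 and 3.48 CPM in UTX (log2 1.05, adjusted p = 0.0168). UTX replicate 2 was the highest library in each case, and the log2 fold change without it was 1.16 for LOXL2 and 0.66 for ANGPTL4, neither called. The call of LOXL2 was also lost with any of the HEAA libraries left out. The hypoxia genes NDRG1 (530, 704 and 513 CPM in UTX; 398 to 413 CPM in HEAA; log2 0.52) and P4HA1 (25.7, 35.1 and 23.6 CPM in UTX; 18.2 to 20.6 CPM in HEAA; log2 0.53) had the same library on top and were likewise not called without it. In EV, too, replicate 2 was the highest of its group for LOXL2, IGFBP3, ANGPTL4, NDRG1 and P4HA1. The part of this library-to-library variation in the called differences was not tested. LCA5, of the ciliary transport machinery, rose by 0.99 and ADAM12, a cell surface metalloprotease, by 0.98.

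The largest falls by log2 fold change were in transcripts of low level. CPE, carboxypeptidase E, was 7.63, 7.39 and 6.62 CPM in HEAA and 1.99, 2.26 and 2.50 CPM in UTX, 3.21-fold lower (log2 -1.68, SE 0.14, adjusted p = 3.13e-08). FHL1, a LIM-domain protein, was 7.76, 8.45 and 9.16 CPM in HEAA and 2.74, 3.03 and 2.28 CPM in UTX (log2 -1.65, SE 0.12, adjusted p = 6.9e-09). NKD2, an inhibitor of Wnt signalling, was 11.4, 10.7 and 10.4 CPM in HEAA and 4.06, 3.88 and 4.09 CPM in UTX (log2 -1.43, SE 0.10, adjusted p = 2.04e-09). Within a group the 3 libraries of these genes lay close together. That no UTX library reached a HEAA library was a condition of this ranking. CACNA1H, a T-type calcium channel, fell by 1.61, SIDT1 by 1.56, CCN3, a matricellular protein, by 1.49, ARTN, a GDNF-family ligand, by 1.30, TENM2, a teneurin, by 1.30, and the pseudogene ABCA15P by 1.32. RGPD5 fell by 1.59, but it belongs to a family of near-identical copies and is uncertain; its adjusted p was 0.0504 with HEAA replicate 3 left out.

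Several secreted regulators fell with clear separation. IGFBP6, a binding protein with preference for IGF2, was 20.6, 18.3 and 20.7 CPM in HEAA and 8.95, 8.11 and 8.30 CPM in UTX (log2 -1.24, SE 0.08, adjusted p = 2.37e-10), and 103 to 110 CPM in EV. IGF2 itself rose from 3994, 3720 and 3798 CPM to 4639, 4716 and 4847 CPM (log2 0.30, SE 0.03, adjusted p = 2.71e-06). In the insulin-like growth factor axis as a whole, 6 of 15 genes rose and 2 fell. BMP7 was 17.5, 15.9 and 17.5 CPM in HEAA and 6.52, 7.13 and 7.83 CPM in UTX (log2 -1.25, adjusted p = 1.44e-07), and FST, an inhibitor of activins, was 35.6, 38.0 and 35.5 CPM in HEAA and 18.8, 20.6 and 18.4 CPM in UTX (log2 -0.92, adjusted p = 1.41e-10). MSN, the membrane-cytoskeleton linker moesin, was 72.5, 72.5 and 75.2 CPM in HEAA and 39.5, 39.1 and 40.5 CPM in UTX (log2 -0.89, SE 0.04, adjusted p = 8.71e-12), against 7.25 to 7.71 CPM in EV. OAS2, an interferon-inducible enzyme, fell from 73.3, 74.1 and 74.1 CPM to 39.0, 35.9 and 38.7 CPM (log2 -0.96, SE 0.04, adjusted p = 3.04e-12). Among 21 interferon-stimulated genes, OAS2 was 1 of 3 that fell, while IRF9 and STAT2, subunits of the interferon-activated factor, rose by 0.41 and 0.23. The other members that fell were IFIT1 (log2 -0.55) and IFIT3 (log2 -0.35), and 16 of 21 were not called. With 1 library left out, the adjusted p reached 0.15 for IFIT1, 0.0592 for IFIT3 and 0.0694 for STAT2.

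Cell division genes were lower as a group. All 22 mitosis genes tested fell, with log2 fold changes of -0.30 to -0.15 and a median of -0.21, against 0.00 for all genes and 11.2% of all genes called lower. BUB1, a spindle checkpoint kinase, was 146, 149 and 143 CPM in HEAA and 123, 115 and 122 CPM in UTX (log2 -0.29, adjusted p = 0.000223), CENPA, the centromeric histone, fell by 0.30 and CDC20, an activator of the anaphase-promoting complex, by 0.28. Of 24 DNA replication genes, 17 fell and none rose, with a median of -0.20. POLE2, a polymerase epsilon subunit, fell by 0.45, GINS2 by 0.32 and MCM2, of the replicative helicase, from 135, 124 and 131 CPM to 107, 106 and 101 CPM (log2 -0.31, adjusted p = 6.75e-05), while RRM2 was level (log2 -0.00, adjusted p = 0.99). CDKN1A, the cyclin-dependent kinase inhibitor p21, rose from 202, 194 and 198 CPM to 248, 270 and 251 CPM (log2 0.37, adjusted p = 7.15e-06), CCND1, cyclin D1, rose by 0.35 and E2F2 fell by 0.41. The count of mitosis genes called lower was 19 to 22 when 1 library was left out and 21 or 22 under the other scalings.

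Nuclear genes of the respiratory chain fell in 19 of 22 cases and rose in none, with a median of -0.23. NDUFB9, of complex I, was 152, 143 and 146 CPM in HEAA and 111, 110 and 109 CPM in UTX (log2 -0.42, SE 0.04, adjusted p = 4.81e-07). COX7B, of complex IV, fell by 0.36 and CYC1, cytochrome c1, by 0.36, while SDHA, of complex II, had a log2 fold change of -0.10 (adjusted p = 0.076). UQCRC2, of complex III, had the largest fall of the list (log2 -0.91), and lies in the chromosome 16 stretch described below; 18 of the 21 other genes fell. Cytosolic ribosomal protein genes, given as a contrast, had 1 of 31 lower and a median of -0.06.

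Serine synthesis and ATF4-dependent genes were lower, 11 of 23 with 1 higher, and a median of -0.19. PHGDH, the first enzyme of serine synthesis, was 133, 121 and 129 CPM in HEAA and 90.6, 76.9 and 80.7 CPM in UTX (log2 -0.63, SE 0.05, adjusted p = 7.96e-08). PSAT1, which follows it, fell by 0.56 and ASNS, asparagine synthetase, by 0.67. NUPR1, a stress-induced nuclear protein, fell by 1.22, and VLDLR, a lipoprotein receptor, rose by 0.30. Of 22 antioxidant genes of the NRF2 programme, 8 fell and 3 rose, and the 3 aldo-keto reductases AKR1C1, AKR1C2 and AKR1C3 fell by 0.60, 0.67 and 0.63; these are close copies whose reads can be split, while HMOX1, haem oxygenase, had a log2 fold change of 0.41 (adjusted p = 0.0207) with overlapping libraries. Cholesterol synthesis genes fell in 8 of 25 cases and rose in none, with a median of -0.07: HMGCS1, the synthase that makes HMG-CoA, fell by 0.24 and INSIG1, a sterol sensor of the endoplasmic reticulum, by 0.22. FABP5, a fatty acid carrier of keratinocytes, fell from 88.0, 86.2 and 82.9 CPM to 50.3, 52.1 and 54.3 CPM (log2 -0.71, adjusted p = 3.89e-09), while ACSL5, an acyl-CoA synthetase, rose by 0.42.

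Antigen presentation genes fell in 5 of 14 cases and rose in 1: PSMB8 and PSMB9, subunits of the immunoproteasome, fell by 0.33 and 0.52 and NLRC5, an activator of MHC class I genes, by 0.69, while HLA-E rose by 0.16. The calls of NLRC5 (adjusted p up to 0.0739) and HLA-E (up to 0.181) were lost with 1 library left out. Of all genes, 11.2% were called lower and 8.87% higher, and 1 of 14 is near the latter. Among 19 NF-kB targets, cytokines and chemokines, 7 fell and 2 rose, with IL36G (log2 -0.73), LCN2 (log2 -0.92) and CCL20 (log2 -0.66) the largest falls above 2 CPM. The only call of at least 2-fold in this list was a rise, in a gene not named here. Targets of YAP and TGF-beta had 7 higher and 2 lower of 21, led by PMEPA1 (log2 0.52, adjusted p = 0.000396), an inhibitor of TGF-beta signalling, with COL4A1 (log2 -1.0), a basement membrane collagen, and CCN1 (log2 -0.29) lower. Mesenchymal genes had 1 of 13 higher, FN1 (log2 0.44), which is near the share of all genes. Another 5 were lower, among them SPARC (log2 -1.45), MSN, S100A4 (log2 -0.39) and SNAI2 (log2 -0.30). Among collagens and matricellular genes, 6 of 28 rose and 5 fell; COL1A1 rose by 0.51 and SPOCK1, a proteoglycan, by 0.84, and COL6A1 and THBS1 fell by 0.49 and 0.47.

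Genes of FGF and MAPK signalling, which the growth factors of sphere medium act on, had no common direction, with 5 higher and 6 lower of 27. FGFR3 (log2 0.00, adjusted p = 0.958) and EGFR (log2 0.07, adjusted p = 0.287) did not pass the test. SPRY1, a feedback inhibitor of receptor signalling, fell from 7.24, 6.33 and 6.40 CPM to 3.78, 3.46 and 3.91 CPM (log2 -0.84, adjusted p = 0.000276), DUSP6 fell by 0.16 and FGFBP1, a carrier of FGF ligands, by 0.44, while KCNN4, a potassium channel, rose by 0.42. NRARP, a Notch feedback gene, fell by 0.59 and NOTCH3 rose by 0.29, and 17 of 20 Notch genes were not called. SOX9, ABCG2 and SOX4, from the list of stem cell and tumorsphere genes, rose by 0.55, 0.35 and 0.30, with 4 of 14 higher and none lower.

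The Polycomb and Trithorax genes around UTX shifted little. In PRC2 with KDM6B, 3 of 12 rose and 4 fell, among them EZH2, the methyltransferase (log2 -0.18, adjusted p = 0.0153), its relative EZH1 (log2 0.23, adjusted p = 0.0154) and KDM6B, the other H3K27 demethylase (log2 0.18, adjusted p = 0.00576). Of 9 genes tested of the UTX complex that methylates lysine 4 of histone H3, KDM6A left out, 1 rose and 2 fell. The median of this list was -0.03 and its lowest log2 fold change -0.21. KMT2D was the gene that rose (log2 0.22, adjusted p = 0.00586). Of 25 HOX genes, classical targets of Polycomb, 4 rose and none fell; HOXA13 was 2.83, 3.23 and 3.31 CPM in HEAA and 5.05, 4.27 and 4.13 CPM in UTX (log2 0.53, adjusted p = 0.00868), and HOXA10 rose by 0.25. EZH1, EZH2, KDM6B, KMT2D and HOXA13 each lost the call with at least 1 library left out.

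A stretch of neighbouring genes on chromosome 16 was lower in UTX; it was chosen after its values were seen. Protein-coding genes with a mean of at least 5 CPM were read along the chromosomes (GENCODE release 29, GRCh38) in 9963 windows of 15 neighbours. The median log2 fold change was -0.3 or lower in 15 windows and 0.3 or higher in none. All 15 lay on chromosome 16, and all 15 were also at -0.3 or lower in full medium. In full medium 38 windows passed, with others over the SPRR and S100A genes of chromosome 1 (-0.83 for SPRR1B to S100A2) and a keratin region of chromosome 12 (-0.60 for KRT80 to IGFBP6). Genes were not filtered by their full medium level, and there none of 11 SPRR genes was called. In full medium 6 of 15 S100A genes and 5 of 20 type II keratins were called lower and 1 of each higher. Of all genes, 12.4% were called lower there. In sphere medium the lowest window stood at -0.70, and the lowest elsewhere at -0.29, over the SPRR and S100A genes of chromosome 1. From THUMPD1 to COG7 (chr16:20702816-23453180), 15 of 17 genes were lower and none higher, with a median of -0.70 in sphere medium and -0.69 in full medium. From RBBP6 to ZKSCAN2 (chr16:24537693-25257931), 5 of 5 were lower, with medians of -0.51 and -0.73. The 8 genes between, from GGA2 to CHP2, had a median of -0.17, and the 10 before THUMPD1, from RPS15A to KNOP1, one of 0.04.

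UQCRC2, a core subunit of complex III, was 524, 529 and 530 CPM in HEAA and 289, 279 and 275 CPM in UTX (log2 -0.91, SE 0.04, adjusted p = 1.16e-12), and THUMPD1, an RNA-binding adaptor, was 79.9, 84.6 and 81.4 CPM in HEAA and 52.2, 50.7 and 52.6 CPM in UTX (log2 -0.66, adjusted p = 1.63e-10). For THUMPD1 the HEAA libraries overlapped those of EV, at 79.1, 82.6 and 80.2 CPM, while UQCRC2 was lower in HEAA than in EV (599 to 638 CPM). Over the 17 genes HEAA over EV went both ways, from -0.52 to 0.53 with a median of -0.03, and UTX over EV had a median of -0.64. NPIPB3, NPIPB4 and NPIPB5 in the stretch belong to a multicopy family and are uncertain; NPIPB4 and NPIPB5 are the 2 genes that were not called. In the second set of lines, none of these 17 genes was lower with UTX over EV (6.01% of all genes were called lower beside wild type FGFR3 and 8.62% beside FGFR3 S249C), and their medians were 0.46 and 0.43. The 5 genes from RBBP6 to ZKSCAN2 had medians of 0.53 and 0.47 there. What sets the stretch apart was not tested, and a property of the line and an effect of the UTX form cannot be told apart here. Taking the genes of the stretch out of the finished calls, without a new fit, brings the count of lower genes from 2189 to 2169 by subtraction alone.

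**Figure D4:**
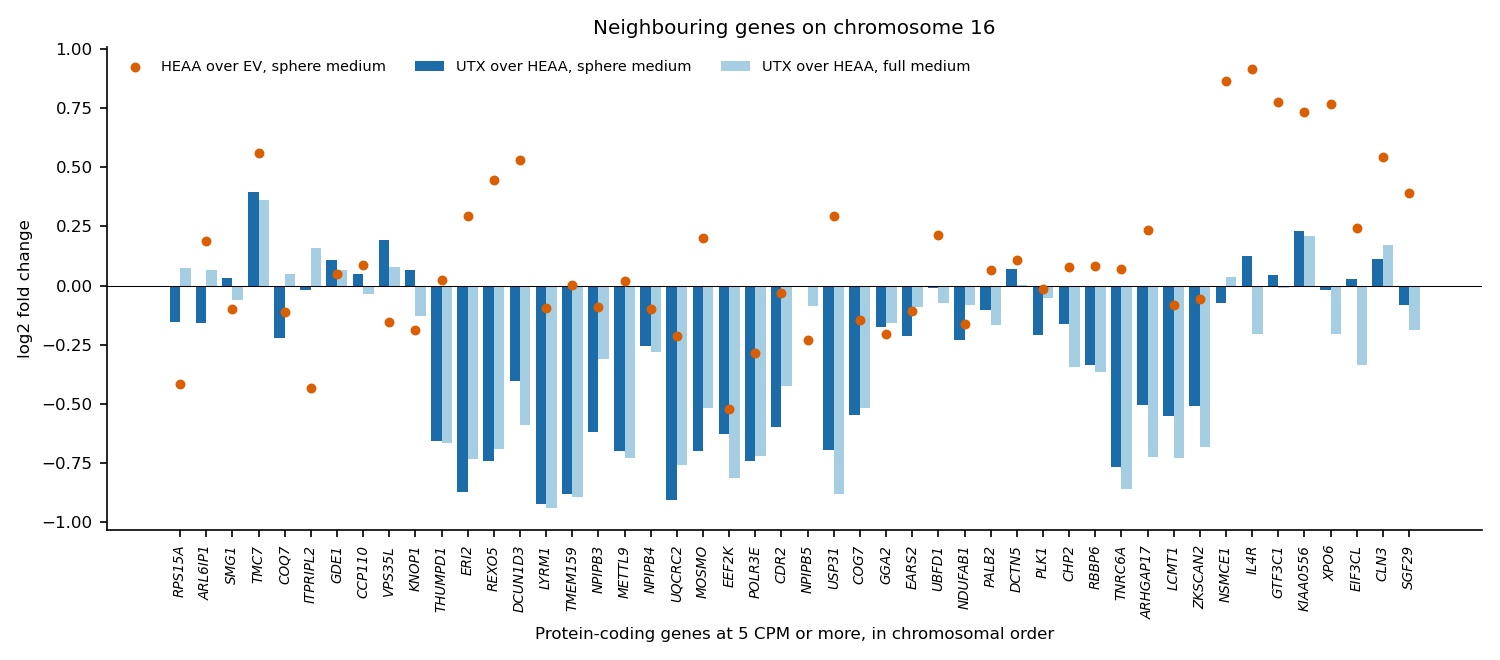
Bars give the log2 fold change of UTX over HEAA (dark blue in sphere medium, light blue in full medium) for protein-coding genes at 5 CPM or more in chromosomal order on chromosome 16, and orange points that of HEAA over EV in sphere medium. From THUMPD1 to COG7 and from RBBP6 to ZKSCAN2 the bars of both media lie below 0, while the genes before THUMPD1 scatter around 0.

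The same 2 lines in full medium share no library with the sphere medium comparison. There, 4198 genes were called (21.4%), 1756 higher (8.95%) and 2442 lower (12.4%). Of the genes higher in sphere medium 40.1% were also higher in full medium (698 genes, 39.7% of those higher in full medium), and of those lower 50.2% were also lower (1099 genes, 45.0%). Genes called in opposite directions numbered 81 (higher in sphere medium) and 42 (lower). Genes at least 2-fold apart in full medium numbered 47 higher (0.239%) and 136 lower (0.693%). Of these, 5 higher genes (10.6%; 5.7% of those in sphere medium) and 17 lower genes (12.5%; 16.7%) were so in both media. Across the 12118 genes with at least 2 CPM in each medium, the log2 fold changes had a Pearson correlation of 0.491, given as a description, since genes are not independent replicates.

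The difference between the media was tested in the same fit, and 1082 genes were called (5.51%), 659 with a more positive (3.36%) and 423 with a more negative value (2.15%) in sphere medium. Without 1 library the 659 became 353 to 504, with UTX sphere replicate 2 giving the lowest count. Mitosis genes differed between the media: 2 of 22 were lower in full medium, with a median of -0.01, and 8 had a more negative value in sphere medium, BUB1 among them (difference -0.37, adjusted p = 0.00183). DNA replication genes fell more in full medium (21 of 24, median -0.34), and 9 had a more positive value in sphere medium. KRT10 fell by 1.06 in sphere medium and had a log2 fold change of -0.15 in full medium, where its mean was 30.5 CPM in HEAA and 27.6 CPM in UTX (difference -0.92, adjusted p = 8.09e-06). KRT5 fell further in full medium (log2 -1.52, from 479 to 167 CPM; difference 0.66, adjusted p = 5.9e-06), as did KRT6A (log2 -1.41 in full medium) and PKP1 (log2 -1.52 in full medium). KRT8 and ELF3 rose more in sphere medium, with log2 fold changes of 0.08 and 0.01 in full medium and differences of 0.46 (adjusted p = 1.66e-05) and 0.68 (adjusted p = 2.65e-05). DSG1 and DSG3 could not be compared, since their means in full medium were 0.033 and 0.122 CPM in HEAA. KRT14, MSN, CDKN1A and PHGDH were close in the 2 media: in full medium they stood at -0.77, -0.91, 0.35 and -0.60.

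Among genes with a mean of at least 2 CPM in each medium, the largest differences between media were the following, with KRT10 above. S100A9 fell by 0.24 in sphere medium, where it was 2486 to 3097 CPM over the 6 libraries, and by 1.85 in full medium, where its mean was 19.8 CPM in HEAA and 5.54 CPM in UTX (difference 1.61, adjusted p = 8.15e-11). GRHL3, a transcription factor of epithelial barrier formation, fell by 0.36 and 1.71 (difference 1.35, adjusted p = 5.21e-07). ADAM19, a membrane metalloprotease, rose by 0.86 in sphere medium and fell by 0.53 in full medium (difference 1.39, adjusted p = 6.73e-05), and B3GALT5, a galactosyltransferase, rose by 0.48 and fell by 0.90 (difference 1.38, adjusted p = 0.000223). The rise of B3GALT5 in sphere medium had an adjusted p of up to 0.141 with 1 library left out. The pseudogene HMGB1P6 had a difference of 1.57 (adjusted p = 0.0423), with overlapping libraries in sphere medium and many near-identical copies. SPINK5 fell by 1.17 in sphere medium and stood at 0.28 in full medium (difference -1.45, adjusted p = 5.9e-05), and RGL1, a Ral activator, fell by 0.79 and stood at 0.31 (difference -1.10, adjusted p = 0.00215). MUC15, a membrane mucin, fell by 0.49 and rose by 0.58 (difference -1.07, adjusted p = 0.000123), and GPRC5D had log2 fold changes of -0.39 and 0.82 (difference -1.21, adjusted p = 0.00591).

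**Figure D5:**
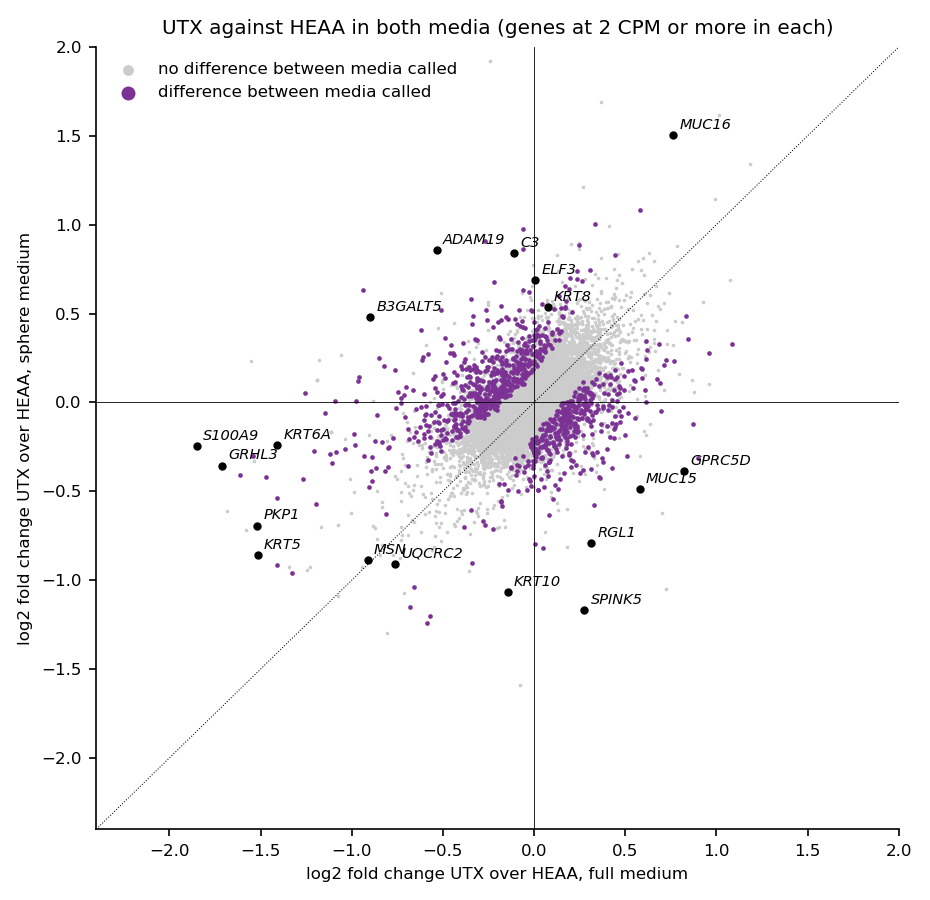
Each point is a gene with at least 2 CPM in each medium; the x axis is the log2 fold change of UTX over HEAA in full medium, the y axis the same in sphere medium, and purple marks genes whose difference between media was called. MSN and UQCRC2 lie near the dotted line of equal change, while KRT10 and SPINK5 lie far below it and ADAM19 and S100A9 far above.

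Both UTX forms differed from EV in sphere medium by more genes than from each other: 9504 genes were called for UTX over EV (48.4%) and 8118 for HEAA over EV (41.4%). These contrasts share libraries with the comparison, so their values are given side by side only. For KRT5 the log2 fold changes over EV were -1.06 with HEAA and -1.92 with UTX, for KRT10 -2.12 and -3.19, for IGFBP6 -2.43 and -3.67, for UPK1B 1.00 and 1.4 and for UPK2 1.22 and 1.94: HEAA lay between EV and UTX. For MUC16 they were -0.05 and 1.46, for KRT8 -0.00 and 0.53, for CLDN1 -0.00 and -0.48, for FHL1 0.10 and -1.55 and for SPRR2D 0.05 and -0.76: HEAA lay near EV. For MSN they were 3.29 and 2.40, and for BMP7 1.15 and -0.10: HEAA lay above UTX in both cases.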

How the data were processed

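RNA of UMUC1 cells was sequenced after Illumina TruSeq preparation (first set of lines) or NEBNext Ultra II preparation (second set), per the labels' protocols. The authors deposited a table of estimated counts per gene, with Salmon 0.8, DESeq2 and builds hg19 and GRCh37 named in the submitters' processing notes; the role of each, and the annotation, are not stated there. Estimated counts were used as deposited, without a further rounding step. Of 58288 genes, 16276 were at 0 in all libraries of the first set and 19629 passed edgeR's filterByExpr. Names came from the file for 26160 genes and from a reference table for 31482.

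The 18 libraries of the first set were fitted together (edgeR 4.0.16 under R 4.3.3, trimmed-mean scaling, quasi-likelihood test, Benjamini-Hochberg adjustment over all 19629 genes, threshold 0.05). The standard error is the absolute log2 fold change divided by the square root of F. The common biological coefficient of variation was 4.58%. Depth ran from 23749352 to 40111234 counts per library. Libraries of a group differed by more than sampling noise (chi-square per degree of freedom 2.16 to 6.73 within UTX and HEAA), so none was counted as a duplicate. The script was tested on simulated data. Alternatives were other scalings, filters, DESeq2 1.42.0, a test against 1.5-fold, a replicate block, only the groups compared, and leaving out each library.

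Named genes were KDM6A; the 10 largest rises and falls in genes with a mean of at least 2 CPM, no overlap between groups and a protein-coding style symbol, and the 5 largest each way at 50 CPM or more; up to 3 called members of each gene list in each direction, and further members needed to show a list's pattern; and the 5 largest differences between media each way at 2 CPM or more in each medium. Some genes this rule picks are not reported here. The groups of genes, the lists and the comparison itself were chosen with earlier results of these data known. The chromosome 16 stretch, the gene families, the promoter windows and the use of the second set of lines were added after values were seen; gene positions are from GENCODE release 29 on GRCh38, not the submitters' build, and were used for order and neighbours.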

Additional observations from a re-analysis of the deposited data

Results flagged for a closer look

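The genes named in the report or its figures whose log2 fold change of UTX over HEAA differed between the media in the edgeR quasi-likelihood test of the difference (adjusted p under 0.05) are given here with that difference, sphere medium minus full medium. Of all genes tested, 5.51% were called for this difference. More positive values in sphere medium of 0.6 or more were found for S100A9 (1.61), HMGB1P6 (1.57), NRARP (1.53), ADAM19 (1.39), B3GALT5 (1.38), GRHL3 (1.35), KRT6A (1.17), ADAM12 (1.03), C3 (0.95), PKP1 (0.83), MUC16 (0.74), ELF3 (0.68), FOXA1 (0.68), IFITM10 (0.67), KRT5 (0.66) and IVL (0.62). Smaller positive differences were found for SOX9 (0.51), TNXB (0.50), FST (0.50), LAMA4 (0.49), DUSP6 (0.48), ACSL5 (0.47), KRT8 (0.46), EEF1A2 (0.46), FGFBP1 (0.44), NOTCH3 (0.44), DSC3 (0.43) and PMEPA1 (0.41). The smallest positive differences were those of DSC2 (0.38), OAS2 (0.36), CCND1 (0.36), CLDN4 (0.29), SOX4 (0.27), GINS2 (0.26), UPK1B (0.25) and DSG2 (0.23). More negative values in sphere medium were found for KRT13 (-0.26), KLF5 (-0.28), VLDLR (-0.33), KRT17 (-0.34), BUB1 (-0.37), SERPINB13 (-0.37), SNAI2 (-0.45), CCN1 (-0.48), FABP5 (-0.49) and COL6A1 (-0.52). The most negative were those of IGFBP6 (-0.65), AKR1C3 (-0.71), FHL1 (-0.91), KRT10 (-0.92), CPE (-0.98), MUC15 (-1.07), RGL1 (-1.10), GPRC5D (-1.21), NUPR1 (-1.25) and SPINK5 (-1.45); COL4A1 had a difference of -0.88 and IFIT1 one of -1.08.

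Some of these genes were called in opposite directions in the 2 media: ADAM19, B3GALT5 and FOXA1 were higher with UTX in sphere medium and lower in full medium, and MUC15, CCN1 and IFIT1 were lower in sphere medium and higher in full medium. The sphere medium calls of B3GALT5 (adjusted p up to 0.141), FOXA1 (up to 0.0995) and IFIT1 (up to 0.15) were lost with at least 1 library left out. The level of S100A9 itself differed between the media, with a mean of 19.8 CPM in HEAA in full medium and 3044 CPM in sphere medium.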

How the results depend on the processing

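No value of a named gene that was called changed sign under any alternative run; values near 0 that were not called did, namely FGFR3, JUP, ITGA6, PPARG and RRM2 in sphere medium and KLF5, KRT17, CCND1, ELF3, ADAM12, NUPR1 and SOX9 in full medium. Counts of genes in the comparison kept within 1.5 times under other scalings, the filters, DESeq2 and the fit of only the groups compared, with these exceptions. Genes at least 2-fold higher numbered 176 with no filter on low counts, 48 with at least 1 CPM in 3 libraries and 32 by DESeq2, and those 2-fold lower 159 with no filter and 55 by DESeq2. With scaling by library totals only, 2695 genes were lower in HEAA over EV. Tested against a 1.5-fold change, 10 genes were higher and 44 lower in sphere medium (10 and 29 of them 2-fold), 12 and 65 in full medium, 13 and 2 for the difference between media, 1214 and 609 for UTX over EV and 962 and 330 for HEAA over EV; a stricter null leaves fewer calls by construction.

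With 1 library left out, genes in sphere medium numbered 998 to 1347 higher and 1877 to 2282 lower (68 to 84 and 87 to 104 at 2-fold), in full medium 1416 to 1514 and 1591 to 2234, for the difference between media 353 to 504 and 354 to 627, for UTX over EV 4028 to 4227 and 4653 to 4949, and for HEAA over EV 3642 to 3912 and 3445 to 3823. The lowest counts were 998 and 353 without UTX sphere replicate 2 and 1591 without HEAA full replicate 3. The difference between media with a more positive value fell by over 1.5 times also without HEAA full replicates 1 (431), 2 (404) and 3 (365), HEAA sphere replicates 2 (411) and 3 (385) and UTX sphere replicates 1 (425) and 3 (421). The cause was not tested.

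Same-numbered UTX and HEAA libraries in sphere medium did not deviate together (r = -0.0773, -0.0819 and 0.0568 across genes), and the main fit used no pairing. The labels do not say whether same-numbered libraries were handled together, and these correlations cannot show it. With a replicate block, 1675 genes were higher and 2104 lower in sphere medium. Limits: calls of small differences depend on 3 libraries a group, genes under 2 CPM carry the largest and least stable fold changes, and the labels do not say whether libraries are separate cultures.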

Other observations

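Replication-dependent histone genes, a group chosen after values were seen, had 5 of 39 higher and none lower in UTX over HEAA in sphere medium. This is near the 8.87% of all genes called higher, and the median log2 fold change was 0.14. In full medium 9 were higher and none lower, with a median of 0.20, beside 8.95% of all genes called higher. The 39 include pseudogenes and copies with identical values, so these counts are uncertain. Claudins had 2 of 13 higher and 1 lower in sphere medium, with a median of -0.04, and 3 lower in full medium. Clade B serpins, protease inhibitors of squamous epithelia, had 5 of 12 lower and 2 higher, and S100A genes 4 of 15 lower and 2 higher. Of all genes, 11.2% were called lower and 8.87% higher in sphere medium, and 12.4% lower and 8.95% higher in full medium.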
